A study of Mus musculus with 6 samples.

Results

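The BTG/TOB and Schlafen genes are families of growth-restraining genes, and 10 of their members were followed here: *Btg1*, *Btg2*, *Btg3*, *Tob1* and *Tob2*, and *Slfn1*, *Slfn2*, *Slfn3*, *Slfn5* and *Slfn8*. The members are defined by gene symbol and family, by a rule that sets no threshold on their values, and all 10 were found among the 16244 genes of the deposited table. RNA-seq was performed on Th17 cells, the IL-17-producing helper T cells, from WT mice and from knockin mice that carry the N275D substitution in RORγt, the transcription factor that defines this lineage. Naive CD4+ T cells, labelled as from spleen, were activated with anti-CD3 and anti-CD28 and polarized for 3 days under pathogenic Th17 conditions, and 3 libraries were analysed per genotype. The series text names IL-6, IL-1β and IL-23 as the polarizing cytokines, whereas the methods add TGF-β, anti-IL-4 and anti-IFN-γ to them. The mice were 6 to 12 weeks old unless otherwise noted, and the labels give the mutant genotype only as "Mut", without saying whether it is homozygous. WT mice are listed as purchased C57BL/6NJ animals, whereas the knockin line was provided by another laboratory and is described only as C57BL/6, so that genotype and source cannot be told apart. Nothing in the labels says whether the libraries of a genotype came from separate mice or cultures, and the p-values measure the spread between these libraries only.

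BTG and TOB proteins bind the CNOT7 and CNOT8 deadenylases of the CCR4-NOT complex and through it shorten poly(A) tails and speed mRNA decay. BTG1 and BTG2 help to keep naive T cells quiescent in this way, *Btg2* is also an immediate early gene and a p53 target, and TOB1 restrains T cell activation. Schlafen proteins are a family specific to vertebrates, several of which bind or cleave RNA. SLFN2 protects T cells as they leave quiescence, forced SLFN1 slows thymocyte growth, and the longer members, SLFN5 and SLFN8 among them, carry a helicase-like part. Many Schlafen genes respond to type I interferon.

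Reads on genes ranged from 17905693 to 18510878 per library in WT and from 17659035 to 17888463 in RORγtN275D cells. Values are normalized reads, in which the authors scaled each library's gene counts by a single factor. Between mutant replicates, the median squared difference in reads was 1.32 to 1.54 times that expected from counting alone. It was 1.38 times for WT replicates 1 and 2, and 2.96 and 3.05 times for the pairs with WT replicate 3, which stood apart. The defining transcripts of the cells were abundant in all libraries, with at least 27166 normalized reads of *Il17a* and 7575 of *Cd4*. Markers of other cells were low but moved with genotype: the summed level of 7 B cell markers was 159 to 177 normalized reads in WT and 246 to 297 in mutant libraries, with 4 of 5 tested markers called higher, and *Ms4a1* never exceeded 9.88. Of all genes tested, 24.7% were called higher and 26.1% lower. The 5 CD8 T and natural killer cell markers in the table summed to 201 to 216 and 284 to 325, with 3 of 4 tested called higher. The 7 myeloid markers summed to 83.8 to 97.2 and 89.9 to 115, with 0 of 2 tested called higher and 1 lower, *Adgre1*, which reached the mean of 10 needed for testing only through WT (22.6 against 6.64), and *Tyrobp* was at 0 in 5 of 6 libraries. *Sox13*, the 1 gamma delta T cell marker in the table, was called higher, at 18.2 to 31.4 and 35.1 to 38.5 normalized reads. The part of these cells in the results below was not tested, and in such bulk samples fewer cells of a type and less RNA per cell cannot be told apart.

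In each family, 1 gene was called lower and a close relative higher in RORγtN275D Th17 cells. Of all genes tested, 26.1% were called lower and 24.7% higher too. *Slfn1* rose 2.28-fold while *Slfn2* fell from 4160 to 3011 normalized reads, and *Btg1* rose 1.31-fold while *Btg2* fell from 1702 to 973. *Slfn5* passed the test by a small margin, and *Btg3*, *Tob1*, *Tob2*, *Slfn3* and *Slfn8* did not pass it. All 10 members passed the filter on low values (a mean of at least 10 normalized reads) and 5 of 10 had an adjusted p under 0.05 by limma, 3 higher and 2 lower. Over the 11908 genes tested, 50.9% were called, 24.7% higher and 26.1% lower, so that the share of members called was close to the background. The median log2 fold change of the 10 members was 0.12, beside -0.0026 for all genes tested. The genotypes did not overlap for 9 of 10 members, 7 higher and 2 lower in the mutant, and for 57.7% of all tested genes, 28.1% higher and 29.6% lower. At 2-fold, 1 member was called and was higher, beside 3.59% of all genes in either direction and 2.73% higher.

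**Figure D1:**
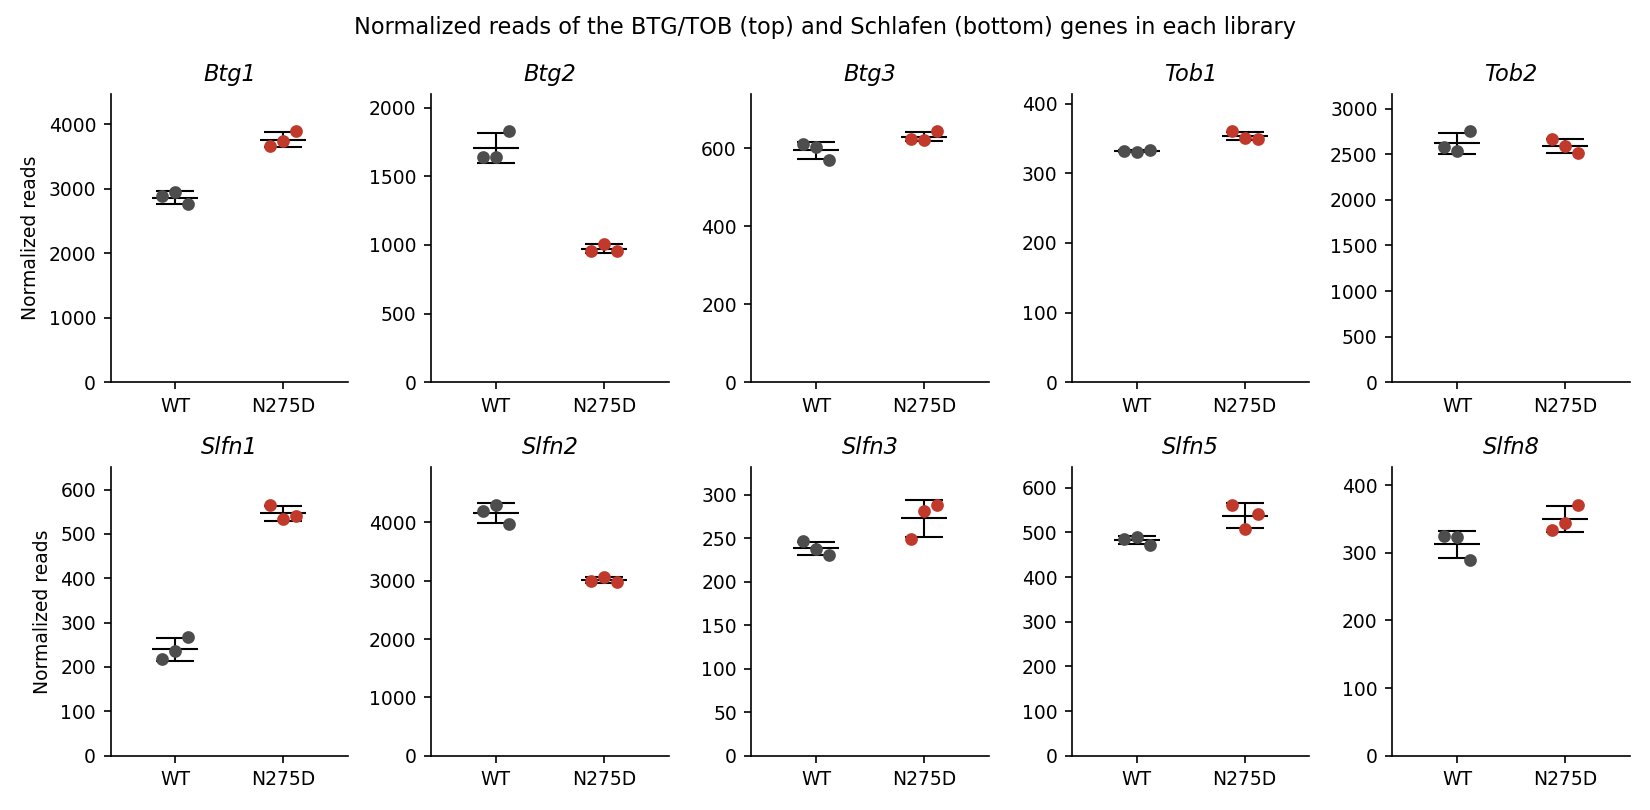
Normalized reads (y axes, from 0, each gene on its own scale) of the 10 genes in the 3 WT (grey) and 3 RORγtN275D (red) libraries, with the mean and SD as black bars. *Btg1* and *Slfn1* were higher and *Btg2* and *Slfn2* lower in every mutant library, and *Tob2* overlapped.

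*Btg2* (GRCm38 chromosome 1, 134074865 to 134079155, minus strand) had 1643, 1636 and 1828 normalized reads in the WT libraries and 958, 1007 and 953 in the mutant libraries. Every mutant library lay far below every WT library, and WT replicate 3 was the highest. The means were 1702 ± 109 and 973 ± 29.9 (SD, n = 3 each), 1.75-fold higher in WT. On the log2 scale the difference was -0.81 ± 0.05 (SE), with adjusted p = 3.35e-09 by limma. Its log2 fold change was the 164th lowest of the 11908 genes.

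*Btg1* (chromosome 10, 96617001 to 96622813, plus strand), the nearest relative of *Btg2*, moved the other way. It had 2883, 2956 and 2759 normalized reads in WT and 3659, 3744 and 3896 in mutant libraries, without overlap. The means were 2866 ± 99.3 and 3766 ± 120 (SD, n = 3 each), which differed by 0.39 ± 0.04 (SE) on the log2 scale, with adjusted p = 9.11e-07 by limma.

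The 250 bases upstream of the annotated start site are shown for both genes because they moved in opposite directions. They are RefSeq sequence of GRCm38.p6, read 5′ to 3′ on the gene's strand, at chr10:96616751-96617000 for *Btg1* and chr1:134079156-134079405 for *Btg2*. Capitals mark a TATA box, TATAAA, in *Btg1* and a cAMP response element, TGACGTCA, in *Btg2*.
Btg1: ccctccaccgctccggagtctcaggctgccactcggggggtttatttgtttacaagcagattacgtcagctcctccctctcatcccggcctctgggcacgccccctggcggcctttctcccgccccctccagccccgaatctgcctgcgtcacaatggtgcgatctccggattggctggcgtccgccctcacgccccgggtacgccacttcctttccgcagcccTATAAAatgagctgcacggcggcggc
Btg2: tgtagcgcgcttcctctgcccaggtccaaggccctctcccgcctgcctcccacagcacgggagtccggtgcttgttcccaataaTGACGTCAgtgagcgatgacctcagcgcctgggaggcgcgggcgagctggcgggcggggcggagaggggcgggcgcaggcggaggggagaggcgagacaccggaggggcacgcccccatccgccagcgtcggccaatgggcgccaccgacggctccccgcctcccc
The TATA box began 26 bases before the start site of *Btg1*, a motif found in 6.89% of the promoter windows of tested genes. The cAMP response element, present in 3.05% of those windows, began 166 bases before the start site of *Btg2* and was not found in the window of *Btg1*. Only exact matches to TGACGTCA were searched, and the window of *Btg1* holds the near match TTACGTCA.

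*Btg3*, another family member that binds the deadenylase, and *Tob1* and *Tob2*, which also carry a poly(A)-binding protein motif in a longer tail, gave small differences. *Btg3* (chromosome 16, 78359860 to 78377181) had 612, 602 and 570 normalized reads in WT and 624, 622 and 644 in mutant libraries, with a log2 fold change of 0.08 (95% interval -0.03 to 0.20, adjusted p = 0.222 by limma). Of its 150-base windows, 15.7% also occur in a transcript of *Gm7334*, so that its reads are uncertain in part. *Tob1* (chromosome 11, 94209842 to 94215495) had 332, 330 and 334 in WT and 360, 350 and 350 in mutant libraries, with a log2 fold change of 0.09 (95% interval -0.05 to 0.23, adjusted p = 0.260 by limma). The libraries of both genes did not overlap, but their means differed only 1.06-fold and the test was not passed. *Tob2* (chromosome 15, 81848270 to 81858326) had 2582, 2534 and 2754 normalized reads in WT and 2669, 2592 and 2517 in mutant libraries. Its groups overlapped, and the 95% interval of its log2 fold change, -0.11 to 0.08, holds differences of up to that size in either direction (adjusted p = 0.776 by limma).

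**Figure D2:**
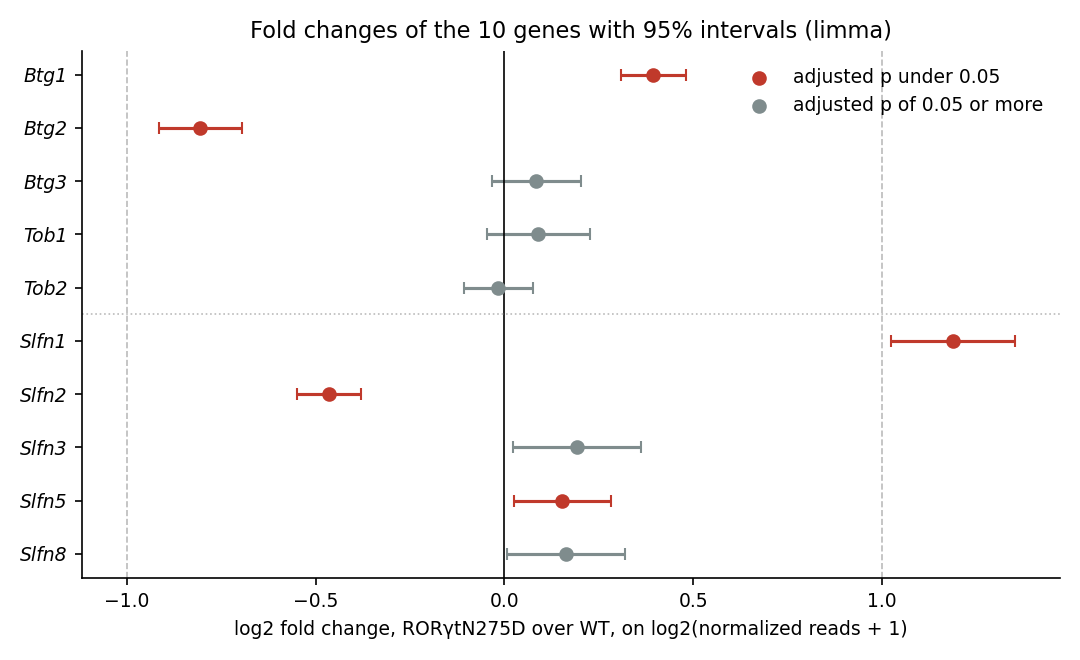
Log2 fold change of RORγtN275D over WT (x axis, on log2(normalized reads + 1)), with 95% intervals from limma, for each of the 10 members. Red marks an adjusted p under 0.05 and the dashed lines mark 2-fold, which only *Slfn1* of the 10 genes passed, at 1.19.

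The Schlafen members lie together on GRCm38 chromosome 11, in a cluster that spans 264 kb from *Slfn5* (start 82951349) to *Slfn3* (end 83215154) and also holds *Slfn9* and *Slfn4*. *Slfn1* (83116820 to 83122670, plus strand) had 217, 236 and 268 normalized reads in WT and 566, 534 and 541 in mutant libraries. The lowest mutant library had almost 2-fold the level of the highest WT library. The means were 240 ± 25.9 and 547 ± 16.9 (SD, n = 3 each). On the log2 scale they differed by 1.19 ± 0.08 (SE), with adjusted p = 3.96e-09 by limma. The log2 fold change of *Slfn1* was the 205th highest of the 11908 genes.

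*Slfn2* (83065112 to 83070678, plus strand) is the neighbour of *Slfn1* among the Schlafen genes, 46.1 kb away and on the same strand. It had 4203, 4303 and 3974 normalized reads in WT and 3001, 3062 and 2972 in mutant libraries, again without overlap but in the opposite direction. The means were 4160 ± 169 and 3011 ± 46.0 (SD, n = 3 each), 1.38-fold higher in WT, with a log2 difference of -0.47 ± 0.04 (SE) and adjusted p = 1.01e-07 by limma.

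*Slfn5* (82951349 to 82964850), a long Schlafen, had 485, 490 and 472 normalized reads in WT and 562, 508 and 542 in mutant libraries, a log2 difference of 0.15 ± 0.06 (SE), with adjusted p = 0.0440 by limma. Its call was lost under 10 of 17 alternatives, with adjusted p from 0.0321 to 0.180 over all of them, among them without each WT library in turn (0.0775, 0.0607 and 0.0646), without RORγtN275D replicate 1 (0.180) and without RORγtN275D replicate 3 (0.113). *Slfn8* (83002125 to 83020810), another long Schlafen, had 325, 323 and 290 in WT and 334, 344 and 371 in mutant libraries, a log2 fold change of 0.16 (95% interval 0.01 to 0.32, adjusted p = 0.0751 by limma). *Slfn3* (83191330 to 83215154), of intermediate length, had 246, 237 and 231 in WT and 249, 281 and 288 in mutant libraries, a log2 fold change of 0.19 (95% interval 0.02 to 0.36, adjusted p = 0.0540 by limma). For these 3 genes every mutant library lay above every WT library, in *Slfn3* and *Slfn8* by a narrow gap, and *Slfn3* was called without RORγtN275D replicate 1 (adjusted p = 0.0249 by limma).

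Of the family genes outside the members, *Slfn4* was called higher, with 93.9, 104 and 65.8 normalized reads in WT and 125, 131 and 95.8 in mutant libraries, which overlapped. The log2 difference was 0.43 ± 0.16 (SE), with adjusted p = 0.0351 by limma. That call was lost under 7 alternatives, which were without WT replicate 3, without RORγtN275D replicate 1, without RORγtN275D replicate 2, DESeq2, quantile normalization, a variance prior without a trend, and all genes with a mean above 0. *Slfn9*, the long Schlafen beside *Slfn8*, had 1106, 1148 and 1013 in WT and 1062, 1064 and 1082 in mutant libraries (log2 fold change -0.02, 95% interval -0.14 to 0.09). *Slfnl1* had reads in 1 library only, WT replicate 3, with 1.96 normalized reads. *Btg4*, *Slfn10-ps* and *Slfn14* were not among the 16244 genes with values. No 150-base window of the *Slfn1*, *Slfn2*, *Slfn5* or *Slfn8* transcripts occurred in another gene, and 1.29% of those of *Slfn3* did. The annotated spans of *Slfn1*, *Slfn2* and *Slfn5* overlap the noncoding genes *Gm51911*, *Gm20234* and *Slfn5os*, and the strand setting of the counting is not given in the sources used here, so that reads of such partners cannot be told apart.

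**Figure D3:**
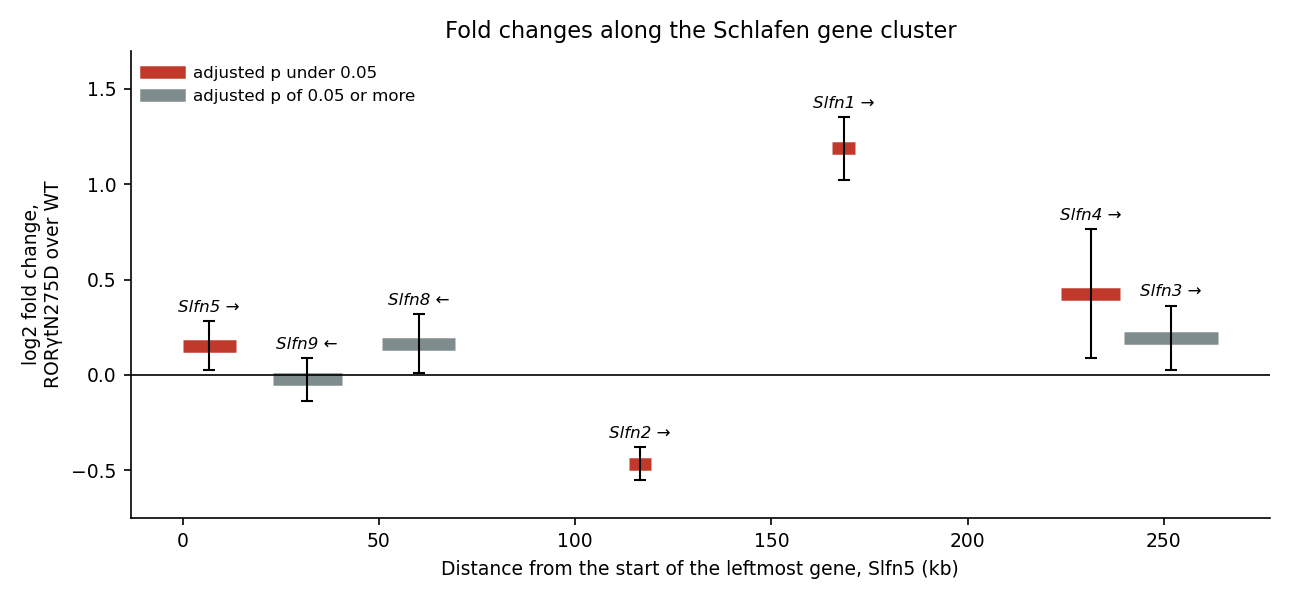
Log2 fold change of RORγtN275D over WT (y axis) for the 7 Schlafen genes of the chromosome 11 cluster, drawn at their place and length (x axis, kb from the start of *Slfn5*), with 95% intervals and arrows for the strand. *Slfn2* at -0.47 and *Slfn1* at 1.19 lie next to each other, and the other genes lie between -0.02 and 0.43.

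The promoters of *Slfn1* and *Slfn2* are shown because these neighbours moved in opposite directions from windows that share a box. They are 250 bases upstream of the start site, at chr11:83116570-83116819 and chr11:83064862-83065111 (GRCm38.p6, RefSeq), with an ETS-like box, ACTTCCTGG, in capitals.
Slfn1: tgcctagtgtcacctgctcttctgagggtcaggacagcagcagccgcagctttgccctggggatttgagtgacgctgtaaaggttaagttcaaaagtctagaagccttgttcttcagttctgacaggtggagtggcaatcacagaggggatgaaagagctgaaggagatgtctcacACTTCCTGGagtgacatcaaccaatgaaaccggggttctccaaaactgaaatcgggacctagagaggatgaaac
Slfn2: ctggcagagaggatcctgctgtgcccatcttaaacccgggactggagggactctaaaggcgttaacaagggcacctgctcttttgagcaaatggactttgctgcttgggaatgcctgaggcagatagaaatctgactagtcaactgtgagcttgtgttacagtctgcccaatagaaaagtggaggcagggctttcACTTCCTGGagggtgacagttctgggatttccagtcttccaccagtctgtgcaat
The box was noticed on reading the promoters and then searched on both strands. It was found in 0.865% of promoter windows of tested genes, and in 4 of the Schlafen genes, *Slfn1*, *Slfn2*, *Slfn3* and *Slfn4*, on the gene's strand and between 42 and 74 bases before the start site. The 30 bases around it are set under each other for these 4 genes, with the box in capitals.
Slfn1: gatgtctcacACTTCCTGGagtgacatcaa
Slfn2: cagggctttcACTTCCTGGagggtgacagt
Slfn3: ggatgacagaACTTCCTGGgggagggactc
Slfn4: ttccggttatACTTCCTGGagtgacgaaat
The bases agtgac follow the box in both *Slfn1* and *Slfn4*, and *Slfn2* has agggtgac there. Of these 4 genes *Slfn1* and *Slfn4* were called higher, *Slfn2* was called lower, and *Slfn3* was not called.

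The interferon-stimulated response element, GAAA and GAAA with any 2 bases between, was found in 3.11% of promoter windows of tested genes. Among the members it was found in *Slfn5*, as GAAAAAGAAA from 155 bases before the start site. It was also found in *Slfn8*, as TTTCGTTTTC on the gene's strand. Both annotated windows of *Slfn8* overlap and hold this same site, from 48 and 136 bases before their start sites. *Slfn9*, with the same 10 bases from 45 bases before its start, was not called. The hypoxia response core, ACGTG, found in 25.8% of windows, was in those of *Tob1*, *Tob2* and *Btg3*, and the ROR response element core, AGGTCA, found in 12.4%, was in those of *Btg2* and *Btg3*, on the opposite strand. The GC box, GGGGCGGGG, was found in *Btg3*, *Tob1*, *Tob2* and *Slfn5* (21.4% of windows). *Btg3* has 2 annotated windows, with its GC box in 1 and its ACGTG and AGGTCA matches in the other. The shares given are per window, so *Btg3* and *Slfn8*, with 2 windows each, had more room for a match. TATAAA was also in the window of *Tob1*. The E-box CACGTG, which contains ACGTG, and the AP-1 site TGANTCA were found in 10.1% and 4.99% of windows and in no member's window.

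Levels of different genes were compared per kb of annotated exon, taken over all annotated transcripts of a gene. The transcript length in use in these cells was not measured, and the library ranges below do not cover an error in it. The order of *Btg2* and *Btg1* in WT rests on this length, since undivided *Btg1* had more normalized reads (2866 against 1702). In WT cells *Slfn2* was the highest member at 2500 ± 101 normalized reads per kb (SD, n = 3), followed by *Btg2* (621 ± 39.7), *Btg1* (543 ± 18.8) and *Tob2* (394 ± 17.4), whose ranges did not overlap. *Btg3* (148), *Tob1* (145) and *Slfn1* (129) came next, where the range of *Btg3* overlapped those of *Tob1* and *Slfn1*. *Slfn8* (76.4), *Slfn5* (76.3) and *Slfn3* (69.8) were lowest, and *Slfn8* overlapped both others. In RORγtN275D cells *Slfn2* remained highest at 1810 ± 27.6 per kb, *Btg1* (714 ± 22.8) was second, and *Tob2* (389 ± 11.4) and *Slfn1* (293 ± 9.08) stood above and below *Btg2* (355 ± 10.9) without overlap. *Btg3* and *Tob1* overlapped at 157 and 154, and *Slfn8*, *Slfn5* and *Slfn3* overlapped at 85.5, 84.9 and 79.9. Of the summed level per kb of the 5 BTG/TOB members, *Btg2* made up 33.5% in WT and 20.0% in mutant cells, and *Btg1* 29.4% and 40.4%. Of the summed level of the 5 Schlafen members, *Slfn2* made up 87.7% and 76.9%, and *Slfn1* 4.52% and 12.5%.

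Ratios within a library cancel its scaling factor, apart from the pseudocount. The log2 ratio of *Btg2* to *Btg1* was -0.81, -0.85 and -0.59 in WT and -1.93, -1.89 and -2.03 in mutant libraries, a difference of -1.20 in the mean. The means of the log2 ratio of *Slfn1* to *Slfn2* were -4.11 ± 0.20 and -2.46 ± 0.06 (SD, n = 3 each), from -4.27, -4.18 and -3.88 in WT and -2.40, -2.52 and -2.45 in mutant libraries, again without overlap. Among the other pairs, the mean difference was -0.31 for *Btg3* to *Btg1*, 0.11 for *Tob1* to *Tob2*, and 0.66, 0.62 and 0.63 for *Slfn3*, *Slfn5* and *Slfn8* to *Slfn2*. The genotypes did not overlap in any of the 7 pairs, where 57.7% of all tested genes, taken singly, did not overlap either. The share over other gene pairs was not computed. The pairs are not all separate results, since every Schlafen pair shares *Slfn2* and both BTG pairs share *Btg1*. Each pair had p = 0.1 in an exact two-sided permutation test (adjusted p = 0.1 over 7 pairs). This is the smallest p that 3 libraries against 3 can give.

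**Figure D4:**
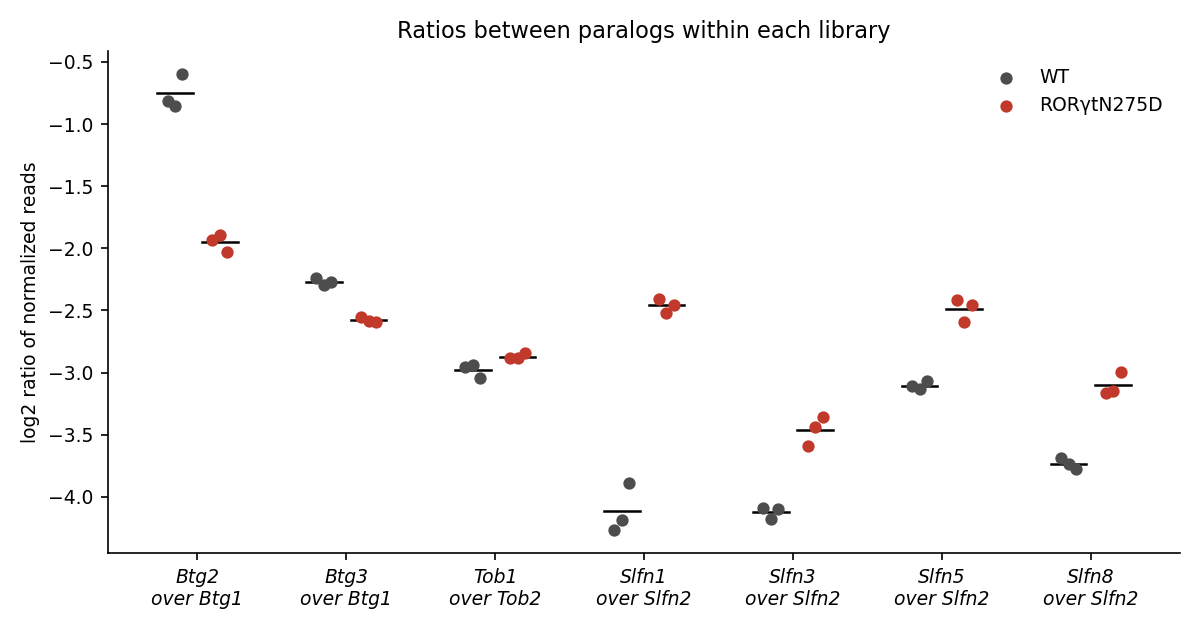
Log2 ratio of normalized reads (y axis) between the members named on the x axis in the 3 WT (grey) and 3 RORγtN275D (red) libraries, with group means as black lines. The mean ratio of *Slfn1* to *Slfn2* was -4.11 in WT and -2.46 in mutant libraries, that of *Btg2* to *Btg1* was -0.75 and -1.95, and no pair overlapped.

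The machinery that BTG and TOB proteins recruit was counted next. Of 15 genes of the CCR4-NOT complex, PAN2-PAN3 and poly(A)-binding proteins, 1 was called higher, 6 lower and 8 were not called, and the median log2 fold change was -0.07, where 50.9% of all genes were called. Under quantile normalization 2 were called higher and 3 lower. *Pabpc4*, a poly(A)-binding protein (-0.38), and *Cnot1*, the scaffold of the complex (-0.22), fell most, and *Cnot6l*, a catalytic subunit, rose (0.31). *Cnot7* (0.13, adjusted p = 0.0604 by limma) and *Cnot8* (-0.07, adjusted p = 0.262 by limma), which encode the subunits that BTG and TOB proteins bind, were not called.

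The p53 targets and immediate early genes, lists to which *Btg2* belongs by function, were mostly lower in mutant cells. Among all genes tested, 26.1% were called lower and 24.7% higher. Of 20 p53 targets other than *Btg2*, 12 were called lower and 4 higher, with a median of -0.40. *Plk3*, a stress-responsive kinase (-0.95), and *Eda2r*, a death receptor (-0.83), fell most, and *Pmaip1*, a BH3-only death gene (0.51), and *Rrm2b*, a ribonucleotide reductase subunit (0.35), rose most. Of 21 immediate early genes, 15 were called lower and 4 higher, with a median of -0.40. *Egr3* (-1.55) and the nuclear receptor gene *Nr4a1* (-0.84) fell most, and the AP-1 family genes *Atf3* (1.19) and *Jun* (0.60) rose most. *Btg2* itself, at -0.81, lay between *Eda2r* and the medians of both lists.

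Genes of T cell quiescence and of proliferation were also counted, since members of both families are known for restraint of growth. For comparison, 24.7% of all genes tested were called higher and 26.1% lower. Of 16 quiescence genes, 7 were called higher and 4 lower, with a median of 0.15. *Il7r*, the IL-7 receptor chain (1.34), and *S1pr1*, the egress receptor (1.04), rose most, *Foxo3* (-0.30) and *Foxp1* (-0.28) fell most, and *Klf2*, which drives *S1pr1*, was not called (0.31, adjusted p = 0.296 by limma). Of 23 proliferation genes tested, 19 were called lower and 1 higher, with a median of -0.24 and none at 2-fold. *Mcm5*, a replication helicase subunit (-0.40), and *Ccna2*, cyclin A2 (-0.39), fell most, and *Ccnd2*, cyclin D2, rose (0.23). *Ccnd1*, cyclin D1, the cyclin whose gene BTG proteins are known to restrain, had a mean below the filter and was not tested. It had 4.04, 3.03 and 8.84 normalized reads in WT and 10.98, 11.04 and 8.89 in mutant libraries. At these low levels the highest WT library and the lowest mutant library were practically equal, so the groups were not clearly apart.

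Across all genes tested, 24.7% were called higher, 26.1% lower and 3.59% at 2-fold in either direction. Of 17 interferon-stimulated genes tested, 12 were called higher and 2 lower, with a median of 0.53 and 5 at 2-fold. *Ifit1*, an antiviral RNA-binding protein (2.14), and *Ifit3*, its partner (1.71), rose most, from low means of 33.7 and 7.63 normalized reads in WT, and *Ifih1*, an RNA sensor, fell (-0.35). Beside these, the Schlafen members had a median of 0.16, with *Slfn1*, at 1.19, between the median and *Ifit3*, and *Slfn2*, at -0.47, below *Ifih1*, the lowest of the 17. *Ifit3* and *Usp18*, both among the 5 at 2-fold, passed the filter only through the mutant group, with WT means of 7.63 and 9.03 and mutant means of 26.2 and 19.3. *Mx1* and *Mx2* were not among the 16244 genes with values.

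**Figure D5:**
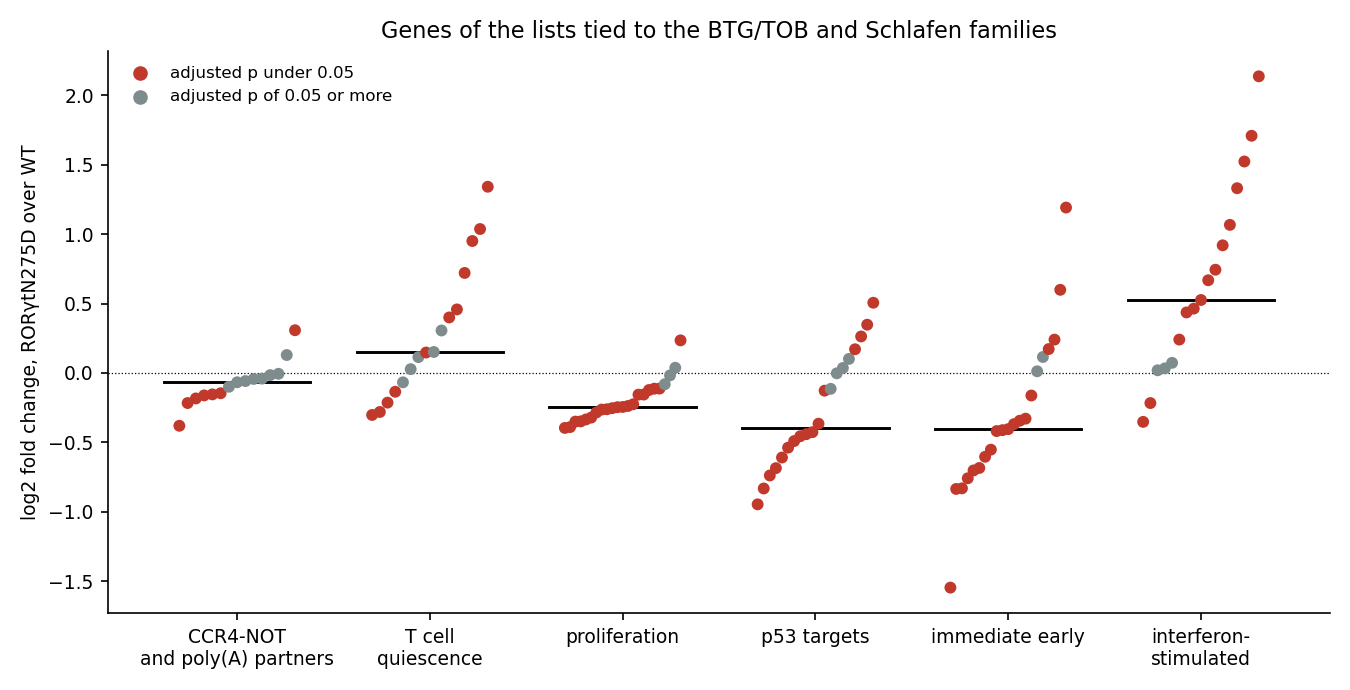
Log2 fold change of RORγtN275D over WT (y axis) for each tested gene of 6 lists (x axis), ordered within a list, with the list's median as a black line and red for an adjusted p under 0.05. Proliferation, p53 target and immediate early genes have medians of -0.24, -0.40 and -0.40, and interferon-stimulated genes one of 0.53.

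The genes whose log2 values followed *Btg2* most closely over the 6 libraries were *S100a6*, *Gpr89* and *Zmynd19*, each with a Pearson correlation that rounds to 1.00. For *Slfn1* they were *Usp22*, *Espn* and *Yap1*, with the same rounded value. These 6 libraries fall into 2 groups that share a genotype difference, and 249 genes had a correlation above 0.99 with *Btg2* and 163 with *Slfn1*.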

How the data were processed

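RNA-seq of 3 WT and 3 RORγtN275D Th17 libraries was analysed, grouped by their labels. The authors' upstream steps were read trimming, STAR alignment (mm10), counting by featureCounts and DESeq2, per the methods. The methods describe strand-specific DNBSEQ libraries, and the labels another directional kit with poly(A) selection. Read assignment between similar genes and tool versions are not given in the sources used here. The deposited values are signal, reads per gene times 1 factor per library; 100% were whole multiples of that factor within 1e-06 in each library, so reads were recovered. The authors' log2 fold changes, q-values, transcript numbers and group means, a rounded score, were deposited too and not used.

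Genes with a mean of at least 10 normalized reads were tested with limma (version 3.58.1, R 4.3.3; trended prior) on log2(normalized reads + 1), which understates fold changes of low genes, with Benjamini-Hochberg adjustment over 11908 genes and calls at an adjusted p under 0.05. The fit was tested on simulated data. The members, though defined by family and not by values, and the gene lists, ratios and alternatives were chosen with earlier results of these data known. All members are named; from each list, the 2 called genes that rose most and the 2 that fell most, plus genes a sentence needs. Some genes that this rule would name are not reported here. Coordinates and promoters, from 250 bases before to 50 after a start site, are from RefSeq (GRCm38.p6, the build of mm10); all 10 members matched. Exon lengths and 150-base windows are from GENCODE M21. Alternatives were other pseudocounts, filters, scalings and variance models, edgeR (4.0.16), DESeq2 (1.42.0), a replicate block and each library left out.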

Additional observations from a re-analysis of the deposited data

How the results depend on the processing

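*Btg1*, *Btg2*, *Slfn1* and *Slfn2* kept direction and call under all 17 alternatives, with log2 fold changes of 0.37 to 0.46, -0.83 to -0.75, 1.12 to 1.27 and -0.50 to -0.40. *Slfn5* lost its call under 10 alternatives, among them quantile normalization (adjusted p = 0.0756) and DESeq2 (0.112). *Slfn3* was called by edgeR (adjusted p = 0.0419) and without RORγtN275D replicate 1. With paralogs summed, an alternative chosen after seeing the data, *Slfn3* with *Slfn4* gave a log2 fold change of 0.26 (adjusted p = 0.00809) and *Slfn8* with *Slfn9* one of 0.020 (adjusted p = 0.761), beside 0.16 for *Slfn8* alone. *Tob2* changed sign without a call, to 0.054 under quantile normalization, 0.0066 with library weights, 0.019 without WT replicate 3 and 0.0049 without RORγtN275D replicate 3, and ranged from -0.041 to 0.019 with 1 library left out. The genes called at 2-fold numbered 427, 259 with a pseudocount of 10, 703 with all genes with a mean above 0 and 162 with a mean of at least 100; the cause was not tested, beyond 16244 and 9581 genes entering the last 2. With a mean of at least 100, 5 of 9 interferon-stimulated genes were called higher, beside 2374 of all 9581 genes. The difference in each of the 7 paralog ratios moved by less than the larger of its 2 group SDs under the alternatives run on it (2 pseudocounts and each library left out). Of all genes, limma called 6056, edgeR on recovered reads 6085 and DESeq2 5078. No pairing of the libraries by replicate number was seen (correlations of deviations -0.05, 0.04 and -0.08), though a weak shared effect could have gone unseen. With a replicate block 5727 genes were called, and of the members *Slfn5* lost its call (adjusted p = 0.0730 by limma).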
